A study of Mus musculus with 23 samples.

Results

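Mitosis genes, 50 listed genes of cell division, were described in the whole right lung of mice with and without the cystic fibrosis (CF) genotype. Each gene was read by 1 probe set, the brightest over all arrays among those annotated with that gene's symbol alone, and 49 of the 50 were measured, out of 18193 genes in all. For 1 listed gene no probe set of a single symbol was found in the annotation used, and it was not analysed here. The lungs came from C57BL/6 (B6) and BALB/c (BALB) mice, of both sexes, that were CF-/- (called CF here) or CF+/+ (called control). Biotin-labelled total RNA gave 3 arrays for each of 7 groups of strain, sex and genotype and 2 arrays for B6 CF males, 23 arrays in total. Age, housing, diet, the CF allele and whether the arrays of a group are separate mice are not stated in the labels; p-values measure the spread between samples alone, and that spread may be technical. Values are deposited signals on a log scale taken as log2, on which a difference of 1 is a 2-fold change, and the number of arrays limits their precision.

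These genes act in the last part of the cell cycle. Cyclins A and B activate the kinase Cdk1, which drives entry into mitosis; Aurora and Polo kinases build the spindle; kinetochore proteins tie chromosomes to microtubules; checkpoint proteins hold back the anaphase-promoting complex until all chromosomes are attached; and motor proteins and a contractile ring then divide the cell. Their transcripts are made mainly before and during mitosis, and their level in a tissue is commonly read as a measure of dividing cells. The adult lung has few dividing cells at rest, and its resident and recruited immune cells, epithelium and endothelium can all enter the cycle. In whole lung a change in the share of dividing cells and a change in RNA per dividing cell cannot be told apart.

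The arrays were checked before the members were compared. The lung markers Sftpc, surfactant protein C of type 2 cells, and Scgb1a1, the club cell secretoglobin, read at least 13.55 and 13.57 on all arrays, near the top of the scale. Cftr, the gene mutated in cystic fibrosis, read 3.49 to 4.42 on BALB CF and 5.40 to 5.85 on BALB control arrays, but 3.86 to 4.31 and 4.04 to 4.58 in B6, where the ranges overlapped, so its level did not check the genotype labels in B6. Markers of other tissues were high on some arrays. On a list score (the log2 signal less each gene's median across the arrays, averaged over the list), squamous epithelium genes stood at 4.20 on B6 control male 3, 1.35 on B6 control female 1 and 2.20 to 4.16 on the 3 BALB CF female arrays. Skeletal muscle genes were high on the same 5 arrays, at 2.68, 0.68 and 1.39 to 3.14. Gut genes stood at 0.85 on B6 control female 1, where the other B6 arrays read at most 0.03, and reached 1.13 on BALB control arrays. The thymocyte score stood at 1.13 on BALB control male 3, where the recombinase gene Rag1 read 6.85 against at most 3.93 on the other 22 arrays. Dntt (5.30 against 4.22), Rag2 (4.11 against 3.72), Arpp21 (4.25 against 3.89) and Themis (5.16 against 4.91) were also highest there. The list's other genes were not: Ptcra read 3.75 against 3.89, Cd1d1 6.89 against 6.97 and Cd8b1 5.90 against 6.50.

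The promoters of the members show a sequence feature that the choice of members did not use. Genes of late cell division are known to carry a cell cycle gene homology region (CHR), bound by the DREAM and MuvB complexes, often next to a CCAAT box bound by NF-Y. RefSeq promoters (build GRCm38.p6, 250 bases before to 50 after each start) were found for 42 of the 49 members. The CHR motif TTTGAA lay on either strand in 32 of these 42 (76.2%), against 15.7% of 14452 measured genes and 17.9% of 32851 promoters of the table. CCAAT lay in 33 of 42 (78.6%), against 42.0% of measured genes, and a CHR motif of any of 3 forms (TTTGAA, its variant TTCGAA, or else TTTAAA) together with CCAAT lay in 31 of 42 (73.8%), against 10.7%. An E2F site (TTTCGCGC or TTTGGCGC) lay in 1 of 42 (2.38%), against 1.45% of measured genes. The 42 members have 44 promoters. Those of Ect2 overlap, as do those of Prc1 (1 is printed below), so some matches were counted more than once. Of 43 TTTGAA matches in the members' promoters 72.1% began after base 200 of the window, against 25.3% of 6737 matches in all promoters. These are matches of letters, which show neither a bound site nor a cause.

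Below are the promoters of the 4 members with the lowest p in the B6 comparison whose promoter the table holds, shown so that the layout can be read; capitals mark CHR and CCAAT motifs, and ATTGG is CCAAT on the other strand. They belong to Racgap1 (chr15:99651607-99651906, minus strand), Prc1 (chr7:80294201-80294500, plus strand), Birc5 (chr11:117848987-117849286, plus strand) and Kif23 (chr9:61946750-61947049, minus strand), all from RefSeq on GRCm38.p6 and written 5′ to 3′ on the gene's strand.
Racgap1: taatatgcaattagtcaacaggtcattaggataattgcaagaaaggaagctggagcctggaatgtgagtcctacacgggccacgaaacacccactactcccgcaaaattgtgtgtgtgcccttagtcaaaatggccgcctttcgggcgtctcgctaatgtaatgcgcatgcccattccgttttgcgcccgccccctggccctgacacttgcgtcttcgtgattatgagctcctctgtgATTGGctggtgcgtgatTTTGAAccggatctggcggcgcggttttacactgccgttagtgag
Prc1: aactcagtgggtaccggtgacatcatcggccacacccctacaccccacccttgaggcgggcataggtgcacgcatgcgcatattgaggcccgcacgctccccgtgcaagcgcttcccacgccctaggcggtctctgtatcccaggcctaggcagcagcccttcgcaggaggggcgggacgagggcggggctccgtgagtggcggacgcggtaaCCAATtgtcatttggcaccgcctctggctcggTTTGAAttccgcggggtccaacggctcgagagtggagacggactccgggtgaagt
Birc5: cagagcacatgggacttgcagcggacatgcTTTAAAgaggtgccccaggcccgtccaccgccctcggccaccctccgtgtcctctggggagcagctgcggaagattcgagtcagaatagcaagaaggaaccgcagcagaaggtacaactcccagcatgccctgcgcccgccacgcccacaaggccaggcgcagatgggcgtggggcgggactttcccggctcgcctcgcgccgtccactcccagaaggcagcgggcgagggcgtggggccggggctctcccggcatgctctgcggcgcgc
Kif23: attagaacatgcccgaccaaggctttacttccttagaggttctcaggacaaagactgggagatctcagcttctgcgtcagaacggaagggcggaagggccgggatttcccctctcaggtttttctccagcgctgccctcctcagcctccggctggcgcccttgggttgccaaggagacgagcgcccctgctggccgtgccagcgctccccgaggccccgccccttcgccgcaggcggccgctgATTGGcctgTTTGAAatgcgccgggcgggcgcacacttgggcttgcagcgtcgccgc
In Racgap1, Prc1 and Kif23 a CCAAT box stands shortly before a TTTGAA motif near the start of transcription. Birc5 shows 1 TTTAAA motif far upstream and no CCAAT in this window. Of the 28 matched members that rose in B6 CF lungs (next), 22 held TTTGAA, and of the 14 that did not pass the test 10 did, so the motif was common on both sides.

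The first question was whether the level of these genes differed between CF and control lungs in each strain. In B6 lungs 33 of the 49 mitosis genes were higher in CF (5 CF and 6 control arrays; limma, adjusted p under 0.05 over all 45037 probe sets tested), none was lower, and 16 did not pass the test. Over all genes 3.92% were called higher and 1.5% lower. The median difference of the members was 0.46, against 0.01 for all genes, and 47 were above 0. No member reached a 2-fold change, and 19 of the 33 rose by at least 0.5. On 27 of 49 members every CF array read above every control array, which held for 1.81% of all genes. Among the genes that rose, Mki67, Anln, Mad2l1, Tpx2, Cenpf and Kif20a had CF and control arrays that overlapped. The members are mostly dim on these arrays, with mean levels from 3.31 (Ncapg) to 6.26 (Kif22), and 39 lie below the median gene at 5.53; 25 of these 39 and 8 of the 10 brighter ones rose.

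**Figure D1:**
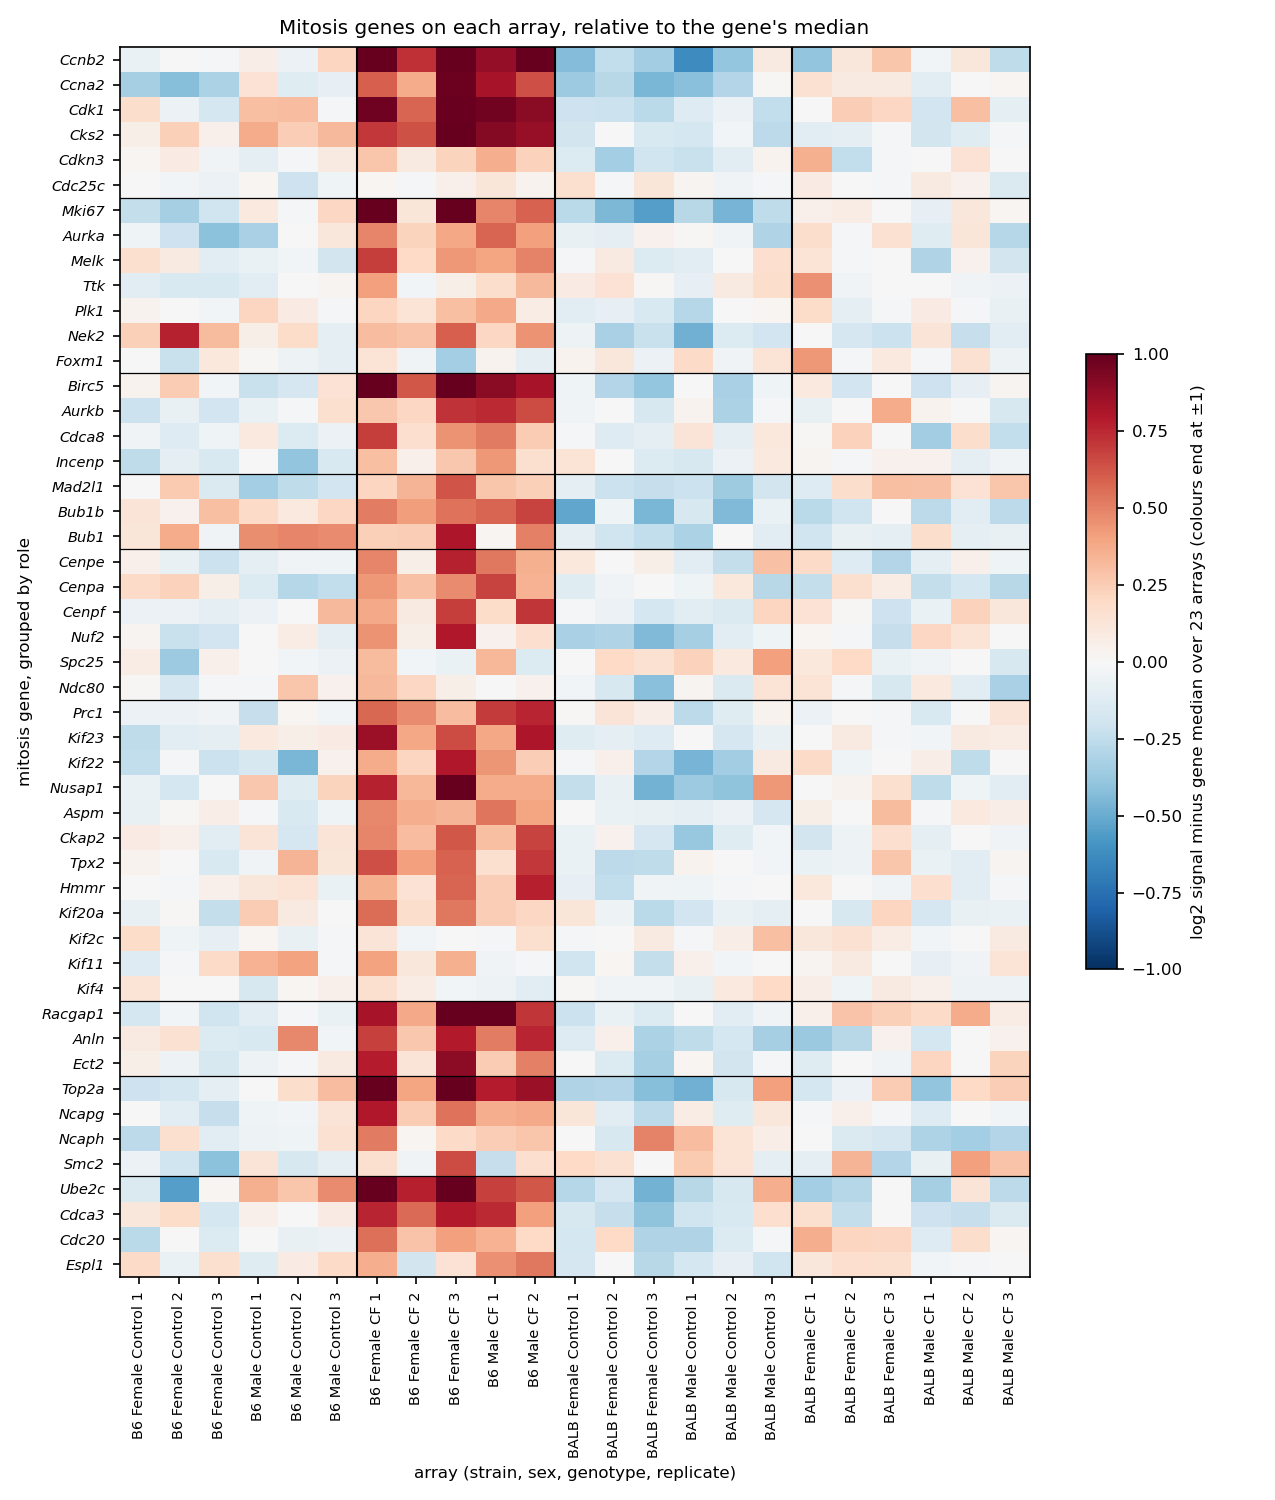
Log2 signal of the 49 mitosis genes (rows, grouped by role) on the 23 arrays (columns, by strain, genotype, sex and replicate), each relative to the gene's median over all arrays, with colours ending at ±1. The 5 B6 CF arrays are red for most genes, where 33 of 49 were called higher, and the BALB arrays of both genotypes are pale.

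Among the cyclins, their kinase and its regulators, 4 of 6 rose in B6. Ccna2, cyclin A2, read 6.04, 5.81 and 6.42 on the CF female and 6.27 and 6.09 on the CF male arrays, and 5.01 to 5.58 with a median of 5.23 on the 6 control arrays. The groups did not overlap, in either sex. Ccnb2, cyclin B2, rose by 0.96 (SE 0.13, adjusted p = 0.000135), the largest difference of the 49. Cdk1, the mitotic kinase, rose by 0.80 (SE 0.10, adjusted p = 6.74e-05), and its small partner Cks2 by 0.65 (SE 0.08, adjusted p = 6.74e-05). The phosphatases did not pass: Cdkn3, which acts on cyclin-dependent kinases, differed by 0.24 (adjusted p = 0.129), and Cdc25c, which activates Cdk1, by 0.10 (95% confidence interval -0.02 to 0.22).

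Of the mitotic transcription factor, the proliferation marker and the kinases, 3 of 7 rose. Aurka, the kinase of the spindle poles, read 4.64, 4.37 and 4.54 on CF female and 4.73 and 4.56 on CF male arrays, against 3.74 to 4.26 (median 4.03) on control arrays, a difference of 0.58 (SE 0.09, adjusted p = 0.000996). Mki67, whose protein coats mitotic chromosomes, read 6.82, 5.91 and 6.84 on CF female and 6.27 and 6.37 on CF male arrays, and 5.45 to 5.99 (median 5.68) on control arrays. It rose by 0.72 (SE 0.12, adjusted p = 0.00118), with CF female 2 inside the range of the controls. Melk, a kinase of dividing cells, rose by 0.47 (adjusted p = 0.00286). The others did not pass: Ttk, the checkpoint kinase, stood at 0.28 (adjusted p = 0.072), Plk1, the Polo kinase, at 0.18 (95% confidence interval 0.02 to 0.33), and Nek2, a kinase of the centrosome, at 0.12 (-0.10 to 0.33). Foxm1, the transcription factor that drives many late cell cycle genes, read 4.17 to 4.65 on CF and 4.29 to 4.62 on control arrays, a difference of -0.01 (-0.20 to 0.18).

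The chromosomal passenger complex, which corrects faulty chromosome attachments, rose in all 4 of its subunits. Birc5 (survivin) read 5.36, 4.93 and 5.65 on CF female and 5.22 and 5.13 on CF male arrays, and 4.09 to 4.56 (median 4.32) on control arrays. Every CF array was above every control array, and the difference was 0.93 (SE 0.11, adjusted p = 5.4e-05). Aurkb, its kinase, read 3.79, 3.72 and 4.24 on CF female and 4.27 and 4.18 on CF male arrays against 3.31 to 3.68 (median 3.45) in controls, a difference of 0.61 (SE 0.10, adjusted p = 0.000779). The scaffold Incenp rose by 0.43 (adjusted p = 0.00282) and Cdca8 (borealin) by 0.46 (adjusted p = 0.00735).

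In the spindle checkpoint 2 of 3 genes rose. Mad2l1, which holds the activator Cdc20 in check, read 5.71, 5.84 and 6.13 on CF female and 5.78 and 5.74 on CF male arrays and 5.16 to 5.76 (median 5.33) on control arrays, a rise of 0.44 (SE 0.09, adjusted p = 0.00505) with a small overlap. Bub1b (BubR1) rose by 0.40 (adjusted p = 0.00914), and the kinase Bub1 stood at 0.04 (95% confidence interval -0.19 to 0.26). At kinetochores and centromeres 3 of 6 rose: Cenpa, the centromeric histone, the motor Cenpe, by 0.51 (adjusted p = 0.00994), and the large coat protein Cenpf, by 0.41 (adjusted p = 0.0407). Cenpa read 5.25, 5.10 and 5.29 on CF female and 5.49 and 5.16 on CF male arrays, all above the control arrays at 4.53 to 5.04 (median 4.78), a difference of 0.49 (SE 0.08, adjusted p = 0.00131). The 3 subunits of the Ndc80 complex, which grips microtubules, did not pass: Nuf2 at 0.34 (adjusted p = 0.0544), Spc25 at 0.14 and Ndc80 itself at 0.09.

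Spindle motors and microtubule binders rose in 9 of 12. Prc1, which bundles the microtubules of the spindle midzone, read 5.11, 5.02 and 4.85 on CF female and 5.24 and 5.31 on CF male arrays and 4.31 to 4.56 (median 4.49) on control arrays. That is a rise of 0.66 (SE 0.07, adjusted p = 1.39e-05), with no overlap. The midzone motor Kif23 rose by 0.65 (SE 0.08, adjusted p = 6.4e-05) and the pole protein Aspm by 0.47 (SE 0.06, adjusted p = 0.00013), Aspm reading 3.91 to 4.11 on CF and 3.42 to 3.64 on control arrays. Rises were also called for Kif22, a motor on chromosome arms, at 0.58, for the microtubule binders Nusap1, Ckap2, Tpx2 and Hmmr, at 0.53, 0.46, 0.44 and 0.40, and for Kif20a, a motor of the midzone, at 0.32. Kif11, the motor that separates the poles, stood at 0.00 (95% confidence interval -0.17 to 0.18), Kif4 at -0.01 (-0.14 to 0.12) and Kif2c, a microtubule depolymerase, at 0.06 (-0.08 to 0.19).

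All 3 cytokinesis genes rose. Racgap1, a regulator of the contractile ring that works with Kif23, had the lowest p of the 49 members: it read 5.38, 4.93 and 5.58 on CF female and 5.56 and 5.27 on CF male arrays, and 4.36 to 4.54 (median 4.46) on control arrays, a difference of 0.90 (SE 0.09, adjusted p = 1.2e-05). The ring scaffold Anln rose by 0.54 (adjusted p = 0.00868) and Ect2, an exchange factor that starts the ring, by 0.51 (adjusted p = 0.00628). Of the condensation genes 2 of 4 rose. Top2a, which untangles sister DNA, rose by 0.85 (SE 0.15, adjusted p = 0.00217), and the condensin subunit Ncapg by 0.50 (SE 0.09, adjusted p = 0.00159), reading 4.03, 3.48 and 3.77 on CF female and 3.60 and 3.61 on CF male arrays and 3.00 to 3.36 (median 3.20) on control arrays. The condensin subunits Ncaph (0.28, adjusted p = 0.156) and Smc2 (0.25, adjusted p = 0.356) did not pass. Of the anaphase group 3 of 4 rose: Ube2c, the ubiquitin-conjugating enzyme of the anaphase-promoting complex, by 0.76 (SE 0.12, adjusted p = 0.00105), Cdca3 by 0.60 (SE 0.09, adjusted p = 0.000473) and the activator Cdc20 by 0.44 (adjusted p = 0.00521). Cdca3 read 5.13, 4.94 and 5.17 on CF female and 5.12 and 4.78 on CF male arrays against 4.20 to 4.56 (median 4.44), and Espl1 (separase) stood at 0.23 (adjusted p = 0.136).

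**Figure D2:**
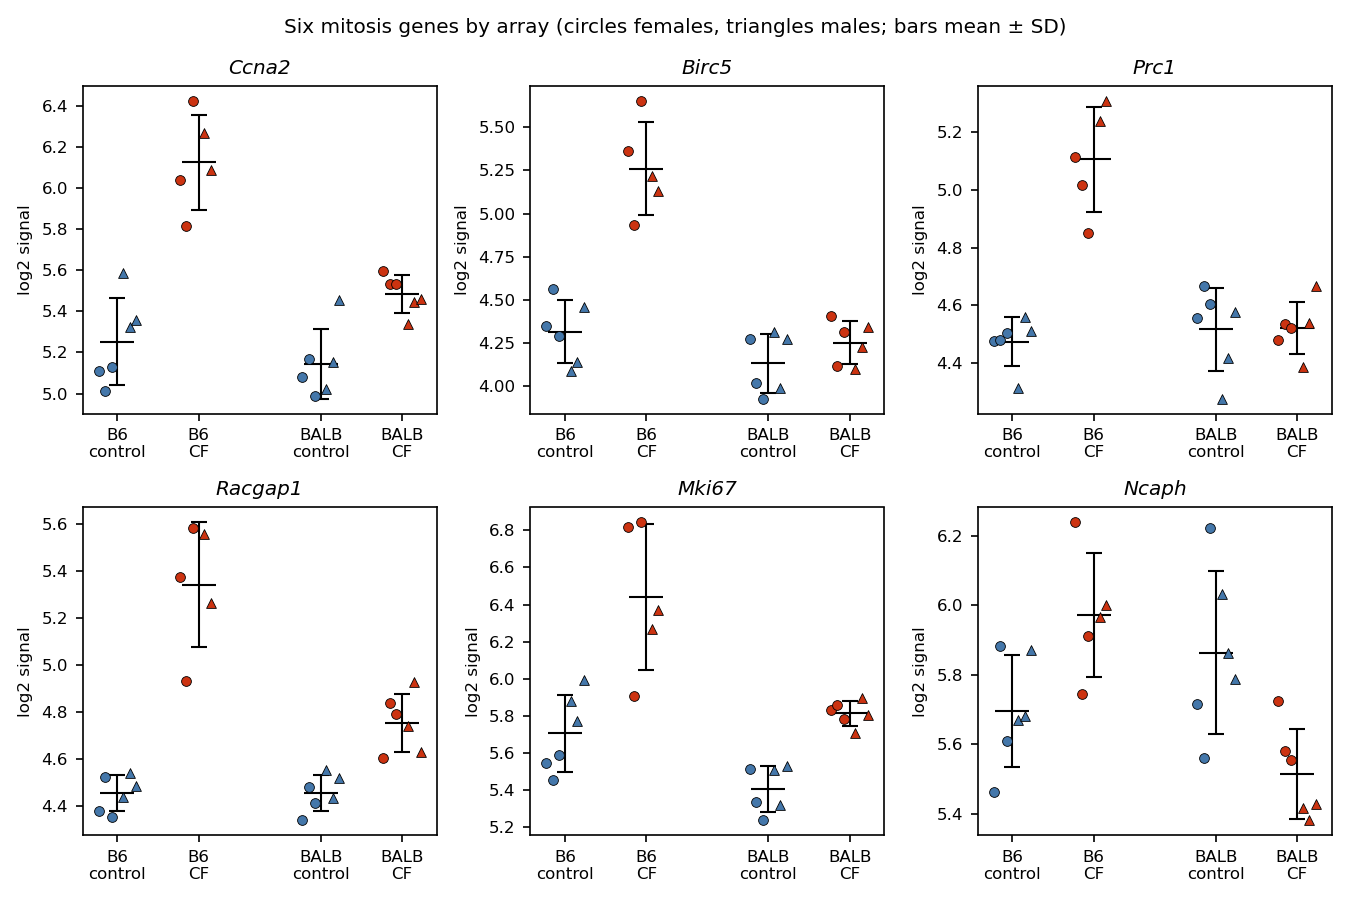
Log2 signal of Ccna2, Birc5, Prc1, Racgap1, Mki67 and Ncaph on each array, by strain and genotype (circles females, triangles males; bars are the mean ± SD of the 5 or 6 arrays of a group). In B6 the CF arrays of Ccna2, Birc5, Prc1 and Racgap1 lie wholly above the controls, and Ncaph is lower in CF in BALB.

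Leaving out single arrays moved the number of members that rose in B6 between 28 and 35, and 25 of the 33 kept the call without any 1 array. The others were lost without some array: Cdca8, Cenpe and Kif22 without CF male 1, Hmmr and Tpx2 without CF male 2, and Cenpf, Kif20a and Nusap1 without any of 9, 7 and 6 arrays. Leaving out a CF male array leaves 1, whose spread was taken to be that of the other groups. Without B6 control female 1 and B6 control male 3, both with squamous genes, 31 rose.

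In BALB lungs 3 of the 49 members rose in CF (Ccna2, Mki67 and Mad2l1), 1 fell (Ncaph), and 45 did not pass (6 CF and 6 control arrays; background 2.87% of genes higher and 2.66% lower). The median difference was 0.09, the range -0.35 to 0.41, and 37 members were above 0. At an unadjusted p under 0.05 there were 12 members, in either direction. The share of all genes at that threshold was not worked out, so this count and the unadjusted counts below have no background. Groups did not overlap, with CF above, for Mki67 and Racgap1, 2 of 49, against 1.22% of all genes.

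Mki67 read 5.70 to 5.89 (median 5.82) on BALB CF and 5.24 to 5.53 (median 5.42) on BALB control arrays, a rise of 0.41 (SE 0.11, adjusted p = 0.0388). Ccna2 rose by 0.34 (SE 0.09, adjusted p = 0.0268), from 4.99 to 5.46 (median 5.11) in controls to 5.34 to 5.60 (median 5.50) in CF. Mad2l1 read 5.37 to 5.81 (median 5.73) on CF and 5.15 to 5.41 (median 5.28) on control arrays and rose by 0.39 (SE 0.08, adjusted p = 0.00721). In Mad2l1 and Ccna2 the ranges overlapped at 1 end. Racgap1, which read 4.61 to 4.93 on CF and 4.34 to 4.55 on control arrays, differed by 0.30 (SE 0.09, adjusted p = 0.0517), just outside the threshold. The Ncaph signal was 5.38 to 5.72 (median 5.49) on CF and 5.56 to 6.22 (median 5.83) on control arrays, a difference of -0.35 (SE 0.10, adjusted p = 0.0467). A second Ncaph probe set differed by -0.21 (adjusted p = 0.164).

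Several of the genes that rose most in B6 showed no such size in BALB. Prc1 read 4.39 to 4.67 on BALB CF and 4.28 to 4.67 on BALB control arrays, a difference of 0.01 (95% confidence interval -0.13 to 0.14). Birc5 differed by 0.12 (-0.10 to 0.34), Ube2c by -0.02 (-0.26 to 0.23) and Cks2 by 0.04 (-0.11 to 0.20). By role the medians ran from -0.01 at kinetochores and -0.00 in condensation to 0.23 in the cyclin group. Kinetochore gene Nuf2 read 3.49 to 3.94 on CF and 3.29 to 3.69 on control arrays (0.28, adjusted p = 0.0929), Aspm 3.56 to 3.89 and 3.41 to 3.57 (0.16, adjusted p = 0.112), and Cdc20 5.88 to 6.38 and 5.71 to 6.21 (0.26, adjusted p = 0.0709). Without single arrays 1 to 5 members rose: 1 without BALB control female 3, BALB control male 1 or 2, or BALB CF male 2 or 3, and 5 without BALB control male 3, B6 CF female 2 or B6 CF female 3. Mad2l1 kept its call without any 1 array, while that of Ncaph was lost without 16 of the 23.

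**Figure D3:**
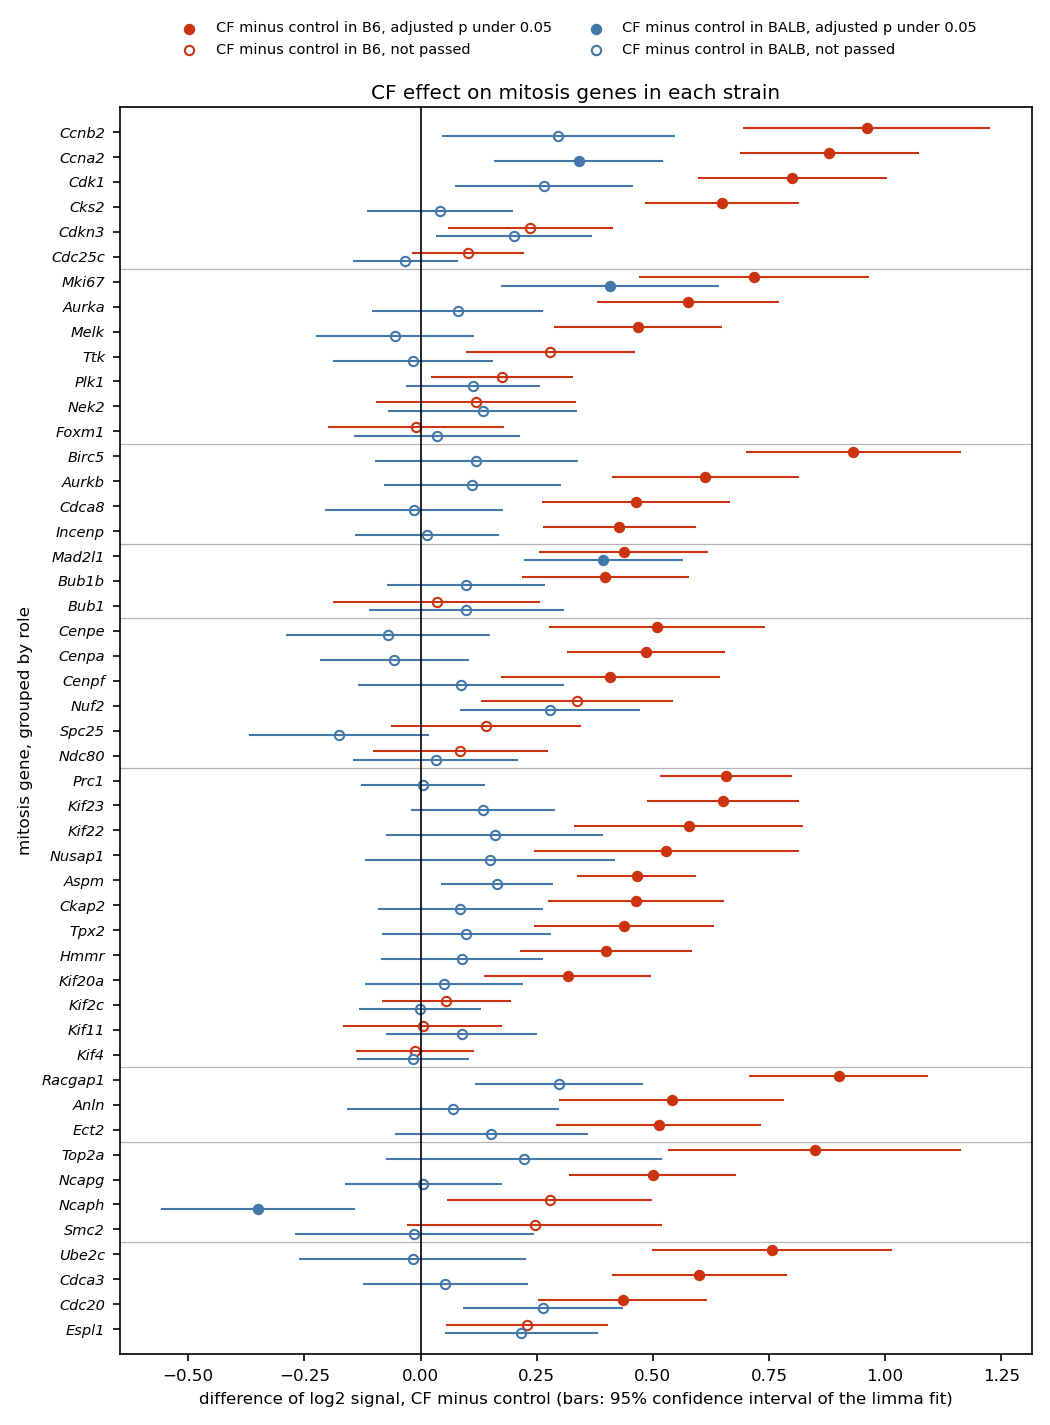
Difference of log2 signal between CF and control for each of the 49 mitosis genes (rows, grouped by role) in B6 (red) and BALB (blue), with 95% confidence intervals of the limma fit; filled points passed an adjusted p under 0.05. Red points have a median of 0.46 and blue points of 0.09, and 33 red and 4 blue points are filled.

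Whether the CF effect differed between the strains was tested directly, as the effect in BALB minus that in B6. It was lower in BALB for 18 of 49 members and higher for none, where 1.51% of all genes were lower and 0.72% higher, with a median of -0.36. All 18 but Ncaph had risen in B6, and 17 of the 33 that rose in B6 passed. The largest difference was that of Birc5 (-0.81, SE 0.15, adjusted p = 0.00643), followed by Ube2c (-0.77, SE 0.17, adjusted p = 0.018), and Prc1 had the lowest p (-0.65, SE 0.09, adjusted p = 0.000909). By role the calls were 4 of 6 in the cyclin group (Cks2, Ccna2, Cdk1, Ccnb2), 3 of 4 in the passenger complex (Birc5, Incenp, Aurkb), 2 each in kinetochore (Cenpa, Cenpe), spindle (Prc1, Kif23), kinase (Melk, Aurka), condensation (Ncaph, Ncapg) and anaphase genes (Ube2c, Cdca3), 1 in cytokinesis (Racgap1) and none in the checkpoint. For Mad2l1, which rose in both strains, the difference was -0.04 (95% confidence interval -0.29 to 0.21), and for Mki67 -0.31 (-0.65 to 0.03). The count fell to 6 without B6 CF male 1, and to 11 without B6 control female 2, B6 control female 3, BALB CF male 1 or BALB control female 1; Birc5, Cks2, Kif23, Melk and Prc1 passed without any 1 array.

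Levels were also compared between the strains within each genotype. Between control lungs 5 of 49 members were lower in BALB than in B6 (9.58% of genes lower), Nek2 at -0.48, Bub1 at -0.47, Bub1b at -0.44, Cks2 at -0.35 and Cdk1 at -0.28, and the median difference was -0.10. Between CF lungs 35 of 49 were lower in BALB (12.1% of genes), with a median of -0.44 and the largest difference for Ube2c (-1.01, SE 0.12). These contrasts share arrays with the tests above and are given as levels. On the list score the B6 CF arrays stood at 0.53, 0.24 and 0.58 (females) and 0.41 and 0.43 (males), B6 controls at -0.08 to 0.05, BALB CF arrays at -0.06 to 0.04 and BALB controls at -0.19 to 0.02. All 5 B6 CF arrays were above all other arrays, and BALB control male 3, the array with the highest thymocyte score, was the highest BALB control.

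The sexes were compared within each strain. In B6 females 22 of 49 members rose (0.594% of genes were higher) and in males 20 (5.13%), 12 passed in both, and all 33 genes called over both sexes had positive differences in each sex. Of these, Ube2c rose by 1.23 in females (SE 0.17, adjusted p = 0.00134) and stood at 0.29 in males (SE 0.19, adjusted p = 0.439), while Cenpa rose by 0.73 in males (SE 0.12, adjusted p = 0.00096) and stood at 0.24 in females (SE 0.11, adjusted p = 0.472). No sex difference of the effect passed for any of the 49 in B6 (2.05% of genes did; 9 members had an unadjusted p under 0.05) or in BALB (1 member at an unadjusted p under 0.05; 0.0275% of genes passed). In BALB females no member passed (10 at an unadjusted p under 0.05; 1.51% of genes in either direction), and in BALB males Mad2l1 did (0.49, SE 0.12, adjusted p = 0.0299; 1.38% of genes higher). Between control females and males no member passed either (8 at an unadjusted p under 0.05; 3.42% of genes in either direction).

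Most members have several probe sets, and they did not all agree. The 49 members have 113, of which 49 were higher and none lower in B6 CF lungs. Counting any probe set, 37 members rose. The 4 additional ones were Spc25 (0.56, adjusted p = 0.00117), Kif11 (0.47, adjusted p = 0.00438), Foxm1 (0.29, adjusted p = 0.00812) and Kif2c (0.29, adjusted p = 0.044), each by a probe set dimmer than the one used above. In BALB CF lungs 4 of the 113 probe sets were higher and 1 was lower. By any probe set 4 members rose there, 1 of them not by its brightest. With the dimmest probe set of each gene in place of the brightest, 19 members rose in B6 and 8 strain differences passed. The probe sets used for Aurkb, Incenp, Kif22 and Ncaph (suffix x) and Cdca8, Cks2, Nek2 and Prc1 (suffix s) carry names that mark probes shared with other transcripts, so their signal is less sure to come from the named gene. A second probe set of Prc1 rose by 0.52 in B6 (adjusted p = 0.00241). The 4 other Incenp probe sets disagreed in B6: 1 rose by 0.47 (adjusted p = 0.00256), and the others read 0.10, 0.07 and, for the dimmest, -0.11, with none of these 3 passing (adjusted p = 0.646, 0.775 and 0.531). By the dimmest the strain difference of Incenp was 0.05 in place of -0.41.

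Other genes of the cell cycle were set beside the members. Over all genes 3.92% were called higher and 1.5% lower in B6 CF lungs, and 2.87% and 2.66% in BALB. For the strain difference 1.51% of all genes were lower in BALB. These shares are the background for the lists here and for the marker lists below. A single call in a list is given for that gene alone and is not a result about the list. Of 64 other mitosis genes 12 rose in B6 (median 0.15) and 1 in BALB, Bora, an activator of Aurka (0.40). The B6 genes of lowest p were Cdca7l (0.65), Cdca5, which guards sister cohesion (0.93), and the condensin subunit Ncapd2 (0.60). Of 40 DNA replication genes 13 rose in B6 (median 0.21), led by thymidine kinase Tk1 (0.77), the ribonucleotide reductase subunit Rrm2 (1.24) and the helicase subunit Mcm5 (0.73), and 2 rose in BALB, Rrm2 (0.45) and Rrm1 (0.35). The strain difference was lower in BALB for 6 of the 64 and 5 of the 40. Genes upstream of the cycle were called in these numbers. Of 26 regulators (E2F, Tfdp, Rb family, MuvB, Myb, Myc and NF-Y genes) 1 rose in B6, E2f8, a repressor of the E2F family (0.33), and none passed in BALB. Of 6 D type cyclins and G1 kinases none passed in either strain (1 and 0 at an unadjusted p under 0.05). Of 13 genes of the anaphase-promoting complex the coactivator Fzr1 (Cdh1) rose in B6 (0.25), with no core subunit called there. The core subunit Anapc4 rose in BALB (0.23).

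Among 21 inhibitors of cyclin-dependent kinases and p53 targets, 3 rose in B6: Cdkn2d, an inhibitor of Cdk4 and Cdk6 (0.35), the antiproliferative Btg1 (0.22) and the kinase Plk3 (0.38). In BALB the kinase Plk2 rose (0.41), and 3 fell: the transcription factor Klf4 (-0.85, SE 0.13, adjusted p = 0.000424), Btg2 (-0.53) and Tob1 (-0.34), both antiproliferative. The strain difference passed for Klf4 (-1.20) and Btg2 (-0.84).

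Markers of immune cells were followed in both strains. In B6, 11 of 15 T cell genes rose, with a list score of 0.22 to 0.58 on CF and -0.58 to -0.07 on control arrays, and 7 of 11 natural killer and cytotoxic genes, at 0.38 to 1.24 and -0.27 to 0.33. Macrophage and monocyte genes rose in 4 of 11 (0.20 to 0.71 and -0.08 to 0.13) and neutrophil genes in 4 of 13 (0.41 to 0.94 and -0.64 to 0.72). In BALB 9 of 11 B cell genes rose (0.08 to 0.77 on CF and -0.95 to 0.19 on control arrays), against 1 of 11 in B6 (-0.50 to 0.48 and -0.86 to 0.41). T cell genes rose in 6 of 15 in BALB (-0.11 to 0.43 and -0.61 to 0.29) and natural killer genes in 2 of 11 (-0.26 to 0.36 and -0.82 to 0.19). Macrophage genes rose in 2 of 11 in BALB (-0.12 to 0.10 and -0.42 to -0.22) and neutrophil genes in 5 of 13 (-0.13 to 0.72 and -0.77 to -0.23). Plasma cell genes rose in 5 of 9 in BALB (0.46 to 0.64 and -0.39 to 0.24), and in B6 4 of 9 rose and 1 fell (-0.30 to 0.34 and -0.68 to -0.33). In BALB the T cell, natural killer and B cell scores of the genotypes overlapped, those of macrophage, neutrophil and plasma cell genes did not overlap, and the mitosis scores did. For T cell and mitosis genes the overlap came from BALB control male 3 alone, at 0.29 and 0.02. The other BALB control arrays reached at most -0.109 and -0.087, and the lowest BALB CF arrays stood at -0.106 and -0.063. For B cell genes the overlap came from BALB control female 3 alone, at 0.19. These arrays were picked out after their scores were seen, and why they differ was not tested. The part of the immune cells in the mitosis result was not tested.

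Markers of cell types that divide in other organs were followed as well. Red cell precursor genes passed in 0 of 9 in either strain, by limma, with none at an unadjusted p under 0.05. Germinal centre B cell genes rose in 1 of 6 in B6 and 0 of 6 in BALB (3 at an unadjusted p under 0.05), with scores of 0.04 to 0.22 on B6 CF arrays and -0.01 to 0.09 on B6 controls. Thymocyte genes rose in 2 of 8 in B6, Cd8b1 and Themis, which mature T cells also express, and Rag1 read at most 3.93 on all arrays but BALB control male 3. Gut genes, with 5 of 14 lower in BALB CF lungs, stood at 0.06 to 1.13 on BALB control arrays and -0.18 to 0.43 on BALB CF arrays; in B6 they passed in 0 of 14 (0 at an unadjusted p under 0.05), with B6 control female 1 at 0.85. Squamous genes rose in 3 of 11 in BALB, where 3 CF female arrays carried them, and passed in 0 of 11 in B6 (2 at an unadjusted p under 0.05). Skeletal muscle genes passed in 0 of 9 in each strain by limma (0 and 5 at an unadjusted p under 0.05). The BALB comparisons hold these arrays, and their part in the BALB values was not tested. In the lung cell lists of B6, 1 of 9 type 2 cell, 1 of 10 endothelial and 1 of 8 fibroblast genes fell, where 1.5% of all genes did. Of 10 airway genes 0 passed (0 at an unadjusted p under 0.05). Scores on B6 CF and control arrays overlapped: -0.06 to 0.06 and -0.06 to 0.16 for type 2, -0.22 to -0.05 and -0.16 to 0.16 for endothelial genes. Fibroblast genes stood at -0.17 to 0.06 and -0.01 to 0.15, airway genes at 0.10 to 0.27 and 0.06 to 0.56.

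**Figure D4:**
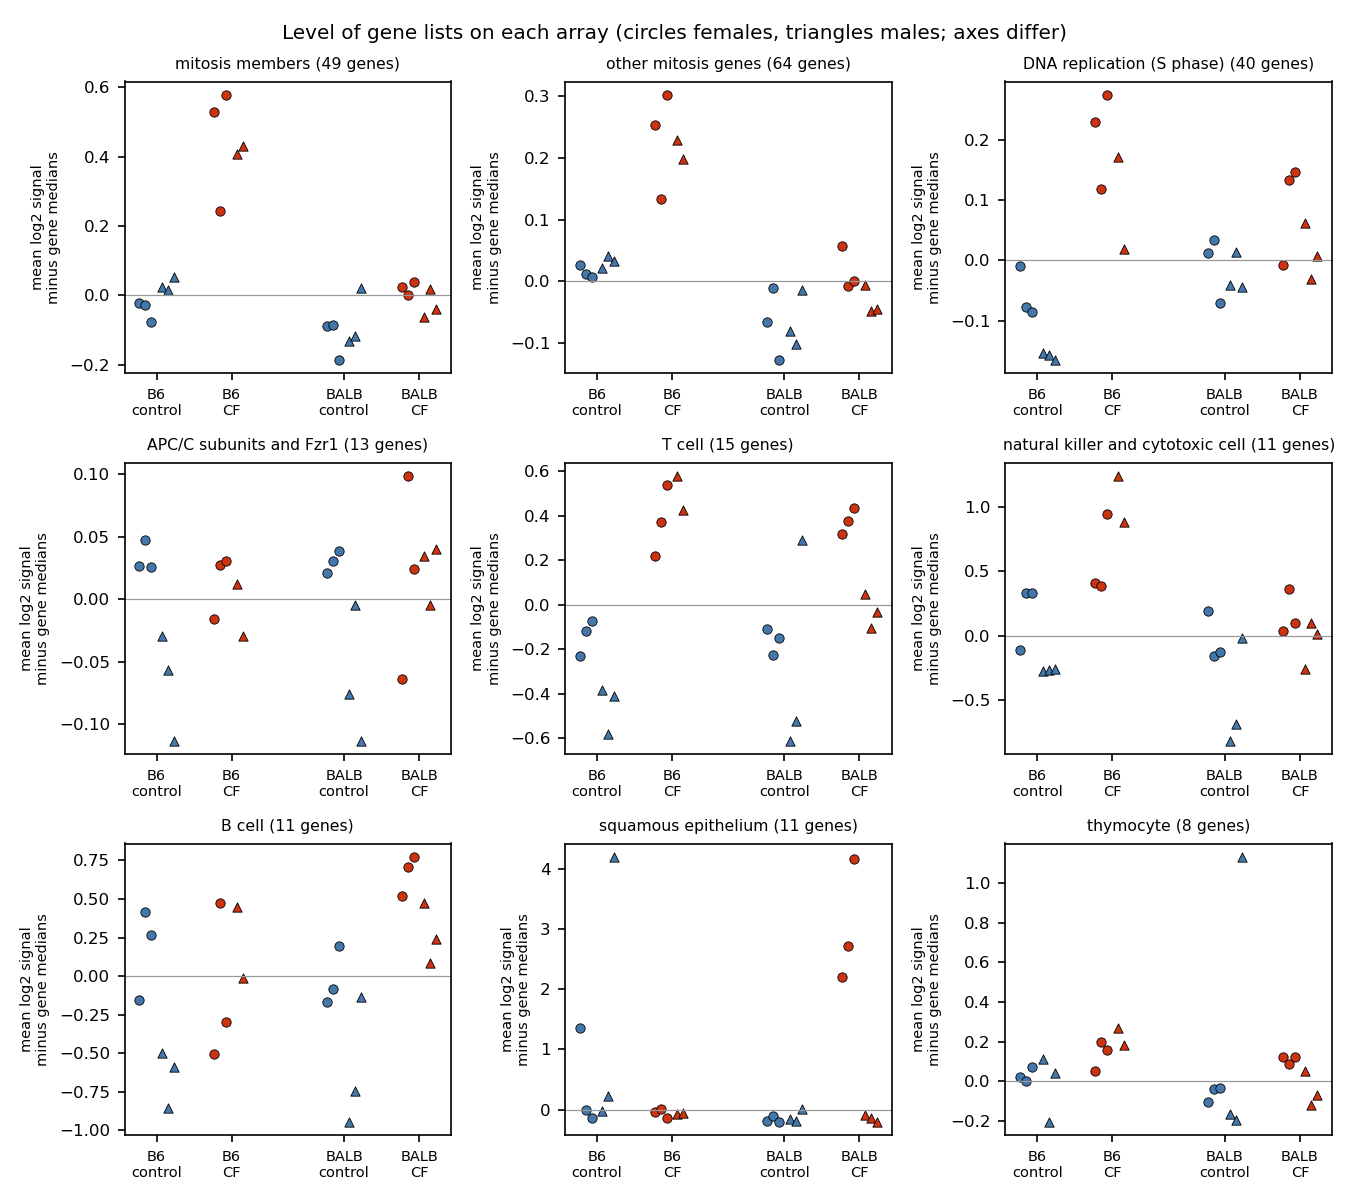
List score of 9 gene lists on each array (vertical axes differ between panels; circles females, triangles males), grouped by strain and genotype. The 49 mitosis genes stand at 0.24 to 0.58 on B6 CF arrays and at most 0.05 elsewhere. T cell genes are high on B6 CF arrays, the 3 BALB CF female arrays and BALB control male 3 (0.29). Squamous genes are high on 5 arrays including the 3 BALB CF female arrays, and thymocyte genes on BALB control male 3.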

How the data were processed

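The authors deposited 1 table of array signals for 23 arrays of whole right lung RNA. The deposited values were taken as log2, from their range, and had the same distribution on every array; for log base, summarization and normalization: not given in the sources used here. Of 45101 probe sets 64 controls were left out and 45037 tested. By the platform annotation 34945 probe sets have 1 symbol, 932 several and 9160 none, and no symbol was updated. Per gene the brightest single-symbol probe set was used.

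Means of the 8 groups were fitted in limma 3.58.1 (R 4.3.3) with eBayes, with Benjamini-Hochberg adjustment of p over all probe sets within each of 12 comparisons, at a threshold of 0.05. Effects are means of both sexes. The fit was tested on simulated data with 200 changed probe sets. In B6 it recovered 22.5%, 78% and 99% of log2 changes of 0.3, 0.5 and 1, and in BALB 29.5%, 84.5% and 99.5%. For the strain difference it recovered 0%, 43% and 96%. Of the calls 0% to 10.4% were unchanged probe sets. A gene that did not pass is therefore not shown to be unchanged. All members could be named; those with values by array were Ccna2, Birc5, Prc1 and the member of lowest p per role and strain, and from each pathway list the 3 genes of lowest p per direction. The Foxm1 array ranges and the genes beyond this were chosen after their values were seen. The members and lists were chosen with earlier results of these data known. Promoters are RefSeq, GRCm38.p6. Alternatives covered normalization, dim probe sets, probe set choice, the model, sex, a replicate block and each array. Because the values already had the same distribution on every array, the normalization alternatives could change little and are no check on the calls.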

Additional observations from a re-analysis of the deposited data

Results flagged for a closer look

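Of 60 groups of 5 or 6 arrays examined, 15 members by strain and genotype with both sexes together, 5 had an array far from the others by Dixon's test, which picks about 1 group in 20 by chance. They were Aspm at 3.89 and Aurkb at 3.89, both high on BALB CF female 3, Mad2l1 at 5.37, low on BALB CF female 1, Aurka at 3.85, low on BALB control male 3, and Prc1 at 4.31, low on B6 control male 1.

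The CF effect differed between the strains for 18 members, and for each it was lower in BALB than in B6. The differences on the log2 scale were -0.81 for Birc5, -0.77 for Ube2c, -0.66 for Ccnb2, -0.65 for Prc1, -0.63 for Ncaph, -0.61 for Cks2, -0.60 for Racgap1, -0.58 for Cenpe, -0.55 for Cdca3, -0.54 for Cenpa and -0.54 for Ccna2. They were -0.53 for Cdk1, -0.52 for Kif23, -0.52 for Melk, -0.50 for Aurkb, -0.50 for Aurka, -0.49 for Ncapg and -0.41 for Incenp. Ncaph is the only one of the 18 with a called effect of its own in BALB besides Ccna2, and the only one called lower there.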

How the results depend on the processing

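In B6 the number of members that rose stayed within 1.5 times of 33 in every alternative but 1: with the dimmest probe set of each gene it was 19. That setting also gave 8 strain differences in place of 18 and turned the sign of Anln (-0.0291) and Incenp (-0.114) in B6 and of the strain differences of Aurka (0.0091), Incenp (0.0542), Racgap1 (0.0174) and Cdca3 (0.035); the cause was not tested. In BALB 7 members rose with array quality weights, in place of 3. The fall of Ncaph in BALB was lost (0 members lower) with the mean of all probe sets, the dimmest probe set, only the arrays of the strain, an additive sex term and the replicate block. The filter on dim probe sets tested 29 of the 49 members, of which 22 rose in B6. It kept probe sets whose highest mean in any of the 8 groups reached 4.59, the median over all probe sets. A member could pass it through a B6 CF group alone, so this share is no check on the rise. Leaving out each array gave 28 to 35 members higher in B6, 1 to 5 higher and 0 to 1 lower in BALB, and 6 to 22 lower in the strain difference. Over all alternatives 14 of the 33 B6 calls, 1 of the 4 BALB calls (Mad2l1) and 3 of the 18 strain differences (Birc5, Melk and Prc1) were kept in each. With the replicate block 33 members rose in B6 and 3 in BALB, and 17 strain differences passed. Same-numbered CF and control arrays within a strain and sex did not deviate together (correlation -0.22 to 0.07 over 11 pairs). Deviations from the mean of so few arrays depend on each other, so these correlations cannot exclude a pairing. Leaving out both B6 control arrays with squamous genes was chosen after seeing the data; it gave 31 members higher in B6 and 14 strain differences. Most members are dim, and whether they were above background was not analysed here.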
